A study of Mus musculus with 24 samples.

Results

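The microRNAs (miRNAs) miR-144, miR-451 and miR-486, the erythroid miRNAs, were followed through the mammary tumors of PyMT mice and the mammary glands of FVB mice. They are the 3 rows named mir-144, mir-451 and mir-486 among the 510 miRNAs of the deposited count table, and all 3 passed the filter on low counts. Small RNA was sequenced from 3 tumors and 3 normal glands at each of weeks 6, 8, 10 and 12 of age, 24 libraries in 8 groups. The tumor mice were females of the FVB strain that carried the MMTV-PyMT transgene on 1 allele. They were sampled as hyperplasia at week 6, as adenoma/MIN (mammary intraepithelial neoplasia) at week 8, as early carcinoma at week 10 and as late carcinoma at week 12. The normal mice were age-matched FVB females without the transgene. The MMTV promoter drives the viral PyMT oncoprotein in the mammary epithelium, and the study describes the hyperplasia and adenoma/MIN tissue as still holding normal gland cells. From stained sections, it describes the carcinoma samples as mostly tumor cells, with few stromal, muscle or inflammatory cells. Whole pieces of tissue were extracted, so every library also holds the miRNAs of the blood, vessels, stroma and muscle in the piece, and fewer cells of a type cannot be told apart from less of an miRNA per cell.

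miRNAs are short RNAs that guide Argonaute proteins to messenger RNAs, mainly through the seed near their 5′ end. miR-144 and miR-451 are cut from a shared transcript that the erythroid factor GATA1 switches on, and miR-451 is among the most abundant miRNAs of red cells and their precursors. miR-451 is known for its unusual maturation, in which Argonaute 2 rather than Dicer cuts the hairpin. miR-486 is encoded within Ank1, the gene for the ankyrin of the red cell membrane skeleton, and is abundant both in red cells and in skeletal and heart muscle. In a mammary gland, which does not form red cells, these miRNAs are commonly taken as markers of blood, with muscle as a further source of miR-486. The study cites earlier work that found miR-486 in the normal mammary epithelium of mice but not in tumors. It proposes that miR-486 may act as a tumor suppressor.

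The sequences of the clustered pair are shown because their seeds decide which messengers each could reach and because their hairpins differ in where the mature strand lies. They were taken from RefSeq on GRCm38.p6, where both hairpins lie on the plus strand of chromosome 11, and the identical hairpins were found in mm9. Capitals mark the seed, bases 2 to 8.
miR-144-5p (chr11:78073010-78073032): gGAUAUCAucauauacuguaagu
miR-144-3p (chr11:78073047-78073066): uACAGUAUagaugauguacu
miR-451a (chr11:78073186-78073207): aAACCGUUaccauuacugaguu
None of the 3 seeds was shared, over bases 2 to 8, with another of the 1738 mature mouse entries of the table. miR-101a-3p shared bases 2 to 7 with miR-144-3p.

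In the hairpins, capitals mark the mature strands.
Mir144 (chr11:78073005-78073070): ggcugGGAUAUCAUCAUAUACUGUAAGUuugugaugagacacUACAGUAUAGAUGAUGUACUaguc
Mir451a (chr11:78073170-78073241): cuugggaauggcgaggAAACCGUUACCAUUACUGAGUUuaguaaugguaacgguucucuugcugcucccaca
In the predicted fold of Mir144, each arm carries a mature strand outside the 6-base loop, with 20 of 23 bases paired in miR-144-5p and 19 of 20 in miR-144-3p. In that of Mir451a, the mature strand of 22 bases takes up the whole 4-base loop, with 17 of its bases paired. In mm9, Mir144 is at chr11:77886507-77886572 and Mir451 at chr11:77886672-77886743, 99 bases apart. Mir486 is at chr8:24253027-24253154 on the plus strand of mm9, in an intron of Ank1 and in an intron of the antisense gene Gm15816. The counts were given per miRNA name, without the arm, and no use of strand was stated, so arms and antisense products of the same place cannot be told apart.

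All 3 miRNAs were counted in all 24 libraries. Total counts per library were 1626022 to 3931375 in normal glands and 1032241 to 2213972 in tumors, at which 3 counts correspond to 0.763 to 2.91 CPM. CPM expresses a count relative to the total of its library, and levels are given after TMM scaling, which also adjusts for differences in composition between libraries. miR-486 was the most counted of the 3, with 5543 to 31229 CPM in normal glands and 1626 to 12217 CPM in tumors. miR-451 had 1880 to 4876 CPM in normal glands and 387 to 2354 CPM in tumors, and miR-144 had 190 to 563 CPM and 47.0 to 280 CPM. The lowest count of any of them was 40, for miR-144 in a tumor of week 8. Among the 510 miRNAs, miR-486 took rank 7 to 28 in normal glands and rank 15 to 58 in tumors, miR-451 took rank 30 to 51 and rank 50 to 93, and miR-144 took rank 80 to 109 and rank 101 to 143.

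**Figure D1:**
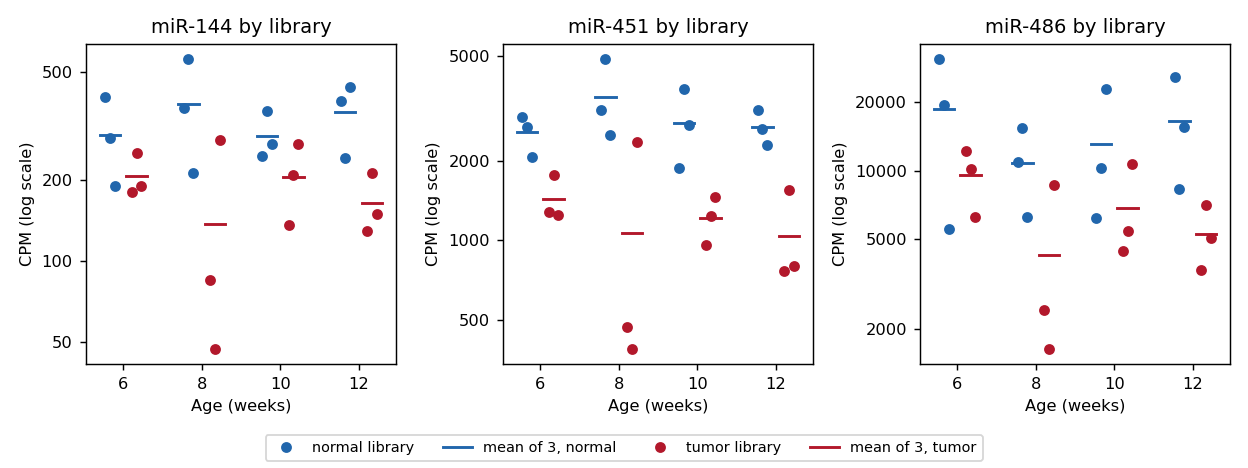
Level of miR-144, miR-451 and miR-486 (CPM, log axis) in each library against age in weeks; points are libraries and bars the mean of the 3 libraries of a group. For miR-451 the tumor libraries lie below the normal libraries at each week, and at week 8 tumor replicate 3 stands above the other tumors for all 3 miRNAs.

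For each week, the quasi-likelihood test of edgeR was run on the 237 miRNAs that passed the filter, and the adjusted p-values of the weekly results below cover all 237. Under-expression in tumors was common among these 237 miRNAs, and it is given beside the calls below as the background. In the order of the weeks, it was called for 29.5%, 13.5%, 27.4% and 21.5% of them. Libraries were separated, with every tumor below every normal gland, for 34.6%, 19.8%, 31.6% and 28.7%. Of the 3 erythroid miRNAs, 1, 0, 1 and 3 were called, all under-expressed, and their median log2 fold change was -0.84, -1.48, -0.94 and -1.38, beside -0.12, -0.09, -0.15 and -0.19 over all miRNAs tested.

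miR-451, which accumulates in maturing red cells, was under-expressed in tumors at weeks 6, 10 and 12, and its tumor libraries lay below its normal libraries at each of the 4 weeks. At week 6, normal replicates 1 to 3 held 2921, 2697 and 2064 CPM and tumor replicates 1 to 3 held 1281, 1762 and 1248 CPM. At week 8, the normal libraries held 3127, 4876 and 2495 CPM and the tumors 471, 387 and 2354 CPM. The third tumor of week 8 was the highest of all 12 tumors, just below the lowest normal gland of its week, while the other two were the lowest tumors. At week 10, the normal libraries held 1880, 3738 and 2731 CPM and the tumors 958, 1235 and 1458 CPM. At week 12, the normal libraries held 3119, 2648 and 2298 CPM and the tumors 765, 1556 and 802 CPM.

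The log2 fold change of miR-451, tumor minus normal, was -0.84 at week 6 (standard error 0.21, adjusted p = 0.0131). It was -1.21 at week 10 (standard error 0.28, adjusted p = 0.00923) and -1.38 at week 12 (standard error 0.31, adjusted p = 0.00901). At week 8 it was -1.72 (standard error 0.68, adjusted p = 0.0804) and was not called. With replicate numbers as a block it was -2.26 there (adjusted p = 9.03e-04), a fit that called 28.7% of the miRNAs under-expressed at week 8. The tumors of week 8 spread over 6.09-fold, from lowest to highest CPM, where the other groups spread over at most 2.03-fold. Without tumor replicate 3 the value at week 8 was -2.96 (adjusted p = 0.00145). The call at week 6 was lost without tumor replicate 1 (-0.75, adjusted p = 0.0543) or tumor replicate 3 (-0.67, adjusted p = 0.0838), and in a fit of all libraries together (-0.84, adjusted p = 0.144). The tumor was lower than the normal gland of the same number and week in 12 of 12 pairs. That count already follows from the separation of the miR-451 libraries at each week.

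miR-144, which is made from the same transcript, was under-expressed in tumors at week 12, and its libraries overlapped at the earlier weeks. At week 6, the normal libraries held 406, 285 and 190 CPM and the tumors 181, 250 and 189 CPM. At week 8, the normal libraries held 368, 563 and 211 CPM and the tumors 85.0, 47.0 and 280 CPM. A tumor stood above the lowest normal library in both weeks, and at week 8 it was again the third tumor. At week 10, the normal libraries held 245, 358 and 271 CPM and the tumors 136, 209 and 271 CPM. At week 12, the normal libraries held 390, 241 and 440 CPM and the tumors 129, 212 and 149 CPM, and each tumor was below each normal gland.

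The log2 fold change of miR-144 was -0.50 at week 6 (standard error 0.32, adjusted p = 0.198), -1.48 at week 8 (standard error 0.66, adjusted p = 0.113), -0.53 at week 10 (standard error 0.29, adjusted p = 0.151) and -1.15 at week 12 (standard error 0.33, adjusted p = 0.0225). With replicate numbers as a block it was -1.81 at week 8 (adjusted p = 0.00706). Without normal replicate 3 it was -0.74 at week 6 (adjusted p = 0.0325), and without tumor replicate 3 it was -2.44 at week 8 (adjusted p = 0.0143). The call at week 12 was lost in 4 of 6 fits that left out a library, which were those without tumor replicate 1 (-1.08, adjusted p = 0.0516), tumor replicate 3 (-1.10, adjusted p = 0.0729), normal replicate 1 (-1.09, adjusted p = 0.0530) or normal replicate 3 (-0.98, adjusted p = 0.0519). It was also lost in a fit of all libraries together (-1.13, adjusted p = 0.0564). The tumor was lower in 11 of 12 same-numbered pairs, and the exception was replicate 3 of week 8.

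miR-486, the member that muscle also makes, was under-expressed in tumors at week 12. It was the most variable of the 3 in normal glands, while in tumors its spread was close to that of miR-451. At week 6, the normal libraries held 31229, 19508 and 5543 CPM and the tumors 12217, 10166 and 6249 CPM. The third normal gland of week 6 was the lowest of all normal libraries and lay below the tumors of its week. At week 8, the normal libraries held 10943, 15389 and 6246 CPM and the tumors 2423, 1626 and 8652 CPM. At week 10, the normal libraries held 6185, 10277 and 22910 CPM and the tumors 4427, 5440 and 10656 CPM. At both of these weeks, 1 tumor lay within the range of the normal libraries. At week 12, the normal libraries held 25818, 8280 and 15584 CPM and the tumors 3637, 7059 and 5027 CPM, with no overlap.

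The log2 fold change of miR-486 was -0.98 at week 6 (standard error 0.55, adjusted p = 0.162), -1.38 at week 8 (standard error 0.63, adjusted p = 0.117), -0.94 at week 10 (standard error 0.50, adjusted p = 0.138) and -1.69 at week 12 (standard error 0.45, adjusted p = 0.0176). With replicate numbers as a block it was -1.76 at week 8 (adjusted p = 0.00554) and -0.85 at week 10 (adjusted p = 3.09e-04), where that fit called 32.9% of the miRNAs under-expressed. Without normal replicate 3 it was -1.42 at week 6 (adjusted p = 0.00358), without tumor replicate 3 it was -2.36 at week 8 (adjusted p = 0.00762), and without normal replicate 1 it was -1.28 at week 10 (adjusted p = 0.0426). The call at week 12 was lost without tumor replicate 3 (-1.67, adjusted p = 0.0600). The tumor was lower in 10 of 12 same-numbered pairs, with the exceptions at replicate 3 of weeks 6 and 8.

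Averaged over the 4 weeks, all 3 erythroid miRNAs were under-expressed in tumors, as were 46.8% of the miRNAs tested. miR-451 was 2.42-fold lower (log2 -1.28, standard error 0.25, adjusted p = 1.02e-04), miR-486 was 2.35-fold lower (log2 -1.23, standard error 0.33, adjusted p = 0.00195) and miR-144 was 1.87-fold lower (log2 -0.90, standard error 0.24, adjusted p = 0.00227). In an exact two-sided permutation test of the mean weekly difference, with genotypes exchanged within weeks, p was 1.25e-05 for miR-451, the smallest that the 160000 arrangements can give, 9.88e-04 for miR-144 and 0.00356 for miR-486. The 3 calls held without any single one of the 24 libraries.

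The tumor-normal difference of none of the 3 was found to vary between weeks. In the fit of all 24 libraries the interaction gave an adjusted p of 0.938 for miR-144 and 0.971 for both miR-451 and miR-486. That test called 0 of the 237 miRNAs (0%), and 9 of them (3.80%) had an unadjusted p under 0.05. A week with a call and a week without one are therefore not shown to differ. A change with age or stage was not called either. Over the weeks in normal glands the adjusted p was 0.915 for miR-144, 0.915 for miR-451 and 0.830 for miR-486, where 13.9% of the miRNAs were called. Over the weeks in tumors it was 0.880, 0.937 and 0.730, where 0 miRNAs (0%) were called and 39 (16.5%) had an unadjusted p under 0.05. Without tumor replicate 3 of week 8, the adjusted p of miR-451 over the weeks in tumors was 0.0356.

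In the order of their mean log2 CPM, the 4 normal groups stood above the 4 tumor groups for each of the 3 miRNAs, and the tumors always followed in the order of weeks 6, 10, 12 and 8. Groups next to each other in this order overlapped in their libraries, except normal glands of week 6 and tumors of week 6 for miR-451. The lowest mean was that of the week 8 tumors, at 6.71 ± 1.30 for miR-144, 9.56 ± 1.43 for miR-451 and 11.66 ± 1.26 for miR-486 (mean log2 CPM ± SD, n = 3). These SDs were the largest among the tumor groups. Within groups, the pooled SD of log2 CPM was 0.63 for miR-144, 0.63 for miR-451 and 0.88 for miR-486, beside a median of 0.37 over the miRNAs tested, of which 85.2%, 84.4% and 95.8% had a smaller SD. For miR-486 it was 0.96 in normal glands and 0.79 in tumors, where that of miR-451 was 0.80.

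**Figure D2:**
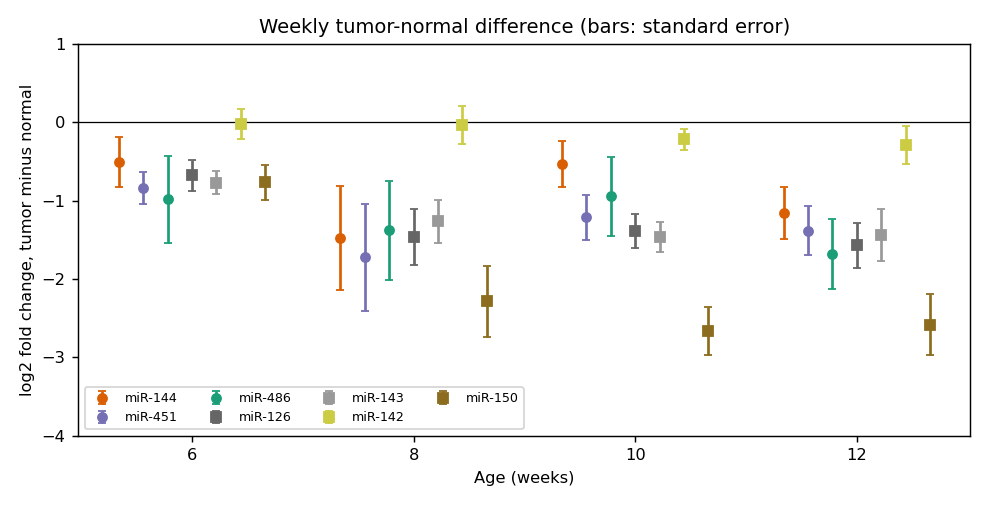
Log2 fold change of tumor minus normal (y axis) at each week (x axis) for the 3 erythroid miRNAs (circles) and for the vessel miRNA miR-126, the stroma miRNA miR-143 and the leukocyte miRNAs miR-142 and miR-150 (squares); bars are standard errors. The erythroid miRNAs lie between -0.50 and -1.72, as do miR-126 and miR-143, while miR-142 stays between -0.02 and -0.29 and miR-150 runs over -0.77, -2.29, -2.66 and -2.58.

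The libraries were sequenced on 2 lanes according to their labels, with 6 normal and 6 tumor libraries on each. On lane 1 the mean weekly difference, tumor minus normal in log2 CPM, was -1.48 for miR-144, -1.77 for miR-451 and -1.79 for miR-486, each with an exact permutation p of 0.0139, the smallest that the arrangements within a lane allow. On lane 2 it was -0.80 for miR-451, with the same exact permutation p of 0.0139. It was -0.22 for miR-144 (exact permutation p = 0.347) and -0.32 for miR-486 (exact permutation p = 0.333) on lane 2, so these differences were not shown within that lane. The third tumor of week 8 was sequenced on lane 2 and the other tumors of that week on lane 1. Whether the difference itself depends on the lane was not tested, and with the lane as a covariate the averaged log2 fold change was -0.94 for miR-144, -1.33 for miR-451 and -1.25 for miR-486.

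The balance between miR-451 and miR-144, which share a transcript, differed between the genotypes. A ratio within a library does not depend on how libraries are scaled. Normal glands held 5.22 to 11.8 counts of miR-451 per count of miR-144, with a median of 9.05. Tumors held 5.36 to 8.41, with a median of 6.80. The ranges overlapped, and the lowest of all 24 ratios belonged to a normal gland, replicate 3 of week 12. The log2 ratio was 0.43 lower in tumors as the mean of the weekly differences (tumor minus normal -0.43, exact two-sided permutation p = 0.00139, adjusted over 3 ratios p = 0.00416), and it was lower in each week, by -0.39, -0.40, -0.62 and -0.33. Within lanes the difference was -0.29 on lane 1 (exact permutation p = 0.0139) and -0.58 on lane 2 (exact permutation p = 0.0417). Normal glands had 7.20 to 9.46 on lane 1, and on lane 2 they had 10.1 to 11.8 apart from the library with 5.22. The ratio of miR-451 to miR-486 differed by -0.21 (exact permutation p = 0.378, adjusted p = 0.378) and that of miR-144 to miR-486 by 0.22 (exact permutation p = 0.290, adjusted p = 0.378), and neither was called. The SDs of these log2 ratios were 0.77 and 0.66 in normal glands and 0.38 and 0.36 in tumors, so equal ratios are not shown.

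**Figure D3:**
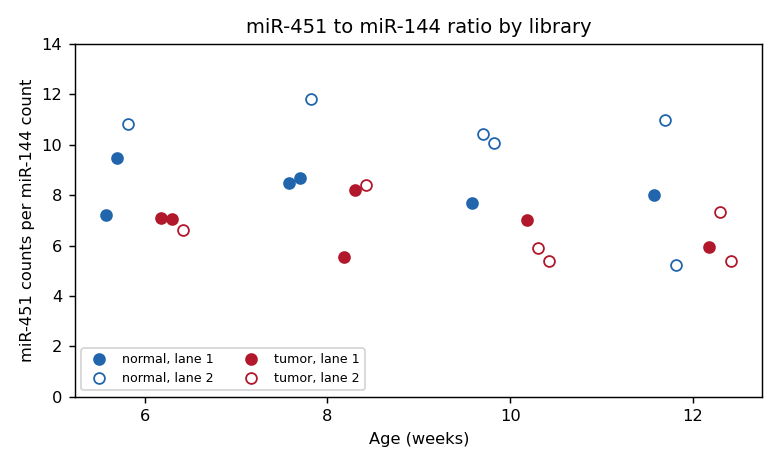
Counts of miR-451 per count of miR-144 (y axis, from 0) in each library against age in weeks; filled points are lane 1 and open points lane 2. The normal libraries lie above the tumors of their week, between 7.20 and 11.8, except replicate 3 of week 12 at 5.22.

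The 3 miRNAs varied together from library to library, in tumors in each of the 3 pairs. Over the 12 tumors, log2 CPM of miR-144 and miR-451 correlated at Pearson r = 0.96 (permutation, adjusted over 6 relations p = 6e-05) and Spearman rho = 0.94 (permutation, adjusted p = 1.2e-04), and r was 0.92 without the 2 libraries farthest from the median. miR-144 and miR-486 gave r = 0.92 (permutation, adjusted p = 1e-04) and rho = 0.83 (permutation, adjusted p = 0.00322) in tumors, with r = 0.76 without the 2 farthest. miR-451 and miR-486 gave r = 0.90 (permutation, adjusted p = 1e-04) and rho = 0.87 (permutation, adjusted p = 0.00183), with r = 0.73 without the 2 farthest. Within lanes, r in tumors was 0.97 and 0.89 for miR-144 and miR-451, 0.93 and 0.89 for miR-144 and miR-486, and 0.95 and 0.71 for miR-451 and miR-486.

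In the 12 normal glands, 2 of the 3 pairs passed the threshold on levels as they are. miR-144 and miR-451 gave r = 0.72 (permutation, adjusted p = 0.0108) and rho = 0.62 (permutation, adjusted p = 0.0448). Without the 2 libraries farthest from the median r was 0.44, and without normal replicate 2 of week 8 it was 0.56 (permutation, adjusted p = 0.0907), so the relation rested on few libraries. On lanes 1 and 2 it was 0.95 and 0.40. miR-144 and miR-486 gave r = 0.64 (permutation, adjusted p = 0.0316) and rho = 0.69 (permutation, adjusted p = 0.0257), with 0.48 and 0.65 within lanes and 0.63 without the 2 farthest, and leaving out any of 6 normal libraries took the adjusted permutation p to 0.0511 or more. miR-451 and miR-486 gave r = 0.43 (permutation, adjusted p = 0.168) and rho = 0.50 (permutation, adjusted p = 0.105) in normal glands. On deviations from the group means, r for this pair was 0.63 (permutation, adjusted p = 0.0316), so its call depended on how the weeks were treated. Whether the relations differ between tumors and normal glands was not tested.

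**Figure D4:**
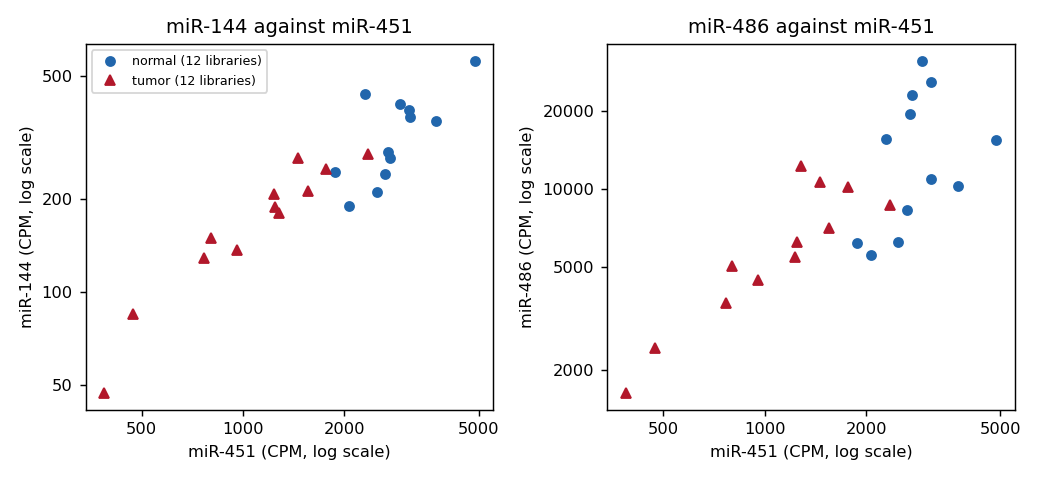
miR-144 (left) and miR-486 (right) against miR-451 in CPM, log axes, over 12 normal (circles) and 12 tumor (triangles) libraries. The tumors line up closely in both panels, whereas miR-486 spreads from 5543 to 31229 CPM in normal glands over a narrow range of miR-451.

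miR-486 stood highest in the normal glands richest in muscle miRNAs. Of the 4 skeletal muscle miRNAs listed, which are miR-1, miR-133a, miR-133b and miR-206, 3 passed the filter, and miR-206 was at 0 in 16 libraries. Their summed level ran from 89.0 to 89332 CPM in normal glands and from 39.9 to 18078 CPM in tumors. miR-133a, the most counted of them, fell into separate ranges in normal glands. In 4 normal libraries, replicates 1 and 2 of week 6, replicate 3 of week 10 and replicate 1 of week 12, it had 28036 to 84623 CPM, and these held the 4 highest levels of miR-486, 19508 to 31229 CPM. They had 7.23 to 10.7 counts of miR-486 per count of miR-451. The other 8 normal libraries had 84.8 to 2324 CPM of miR-133a and up to 6.78 counts of miR-486 per count of miR-451, with a median of 3.14. Over all 12 normal libraries, the log2 ratio of miR-486 to miR-451 and log2 CPM of miR-133a gave r = 0.89 (permutation, adjusted over 4 relations p = 0.00156). Spearman rho was 0.77 (permutation, adjusted p = 0.00954), and r was 0.82 without the 2 farthest libraries and 0.98 and 0.76 on lanes 1 and 2. Within the 8 libraries below the widest gap in miR-133a, a split taken from these data, r was 0.38 (exact permutation p = 0.351).

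In tumors, where miR-133a ran from 37.2 to 17681 CPM, the log2 ratio of miR-486 to miR-451 rose with log2 CPM of miR-133a. The relation gave r = 0.84 (permutation, adjusted over 4 relations p = 0.00156) and rho = 0.86 (permutation, adjusted p = 0.00248), with r = 0.69 without the 2 farthest libraries and 0.85 on both lanes. The tumors richest in miR-133a were replicate 1 of week 6 with 9.54 counts of miR-486 per count of miR-451 and replicate 3 of week 10 with 7.31. The log2 ratio of miR-144 to miR-451 gave r = 0.19 with miR-133a in tumors (permutation, adjusted p = 0.629). With miR-133a as a covariate, the averaged log2 fold change of miR-486 was -0.84 (standard error 0.26, adjusted p = 0.00642), in place of -1.23. That of miR-144 was then -0.84 (standard error 0.25, adjusted p = 0.00554) and that of miR-451 was -1.23 (standard error 0.26, adjusted p = 2.90e-04).

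**Figure D5:**
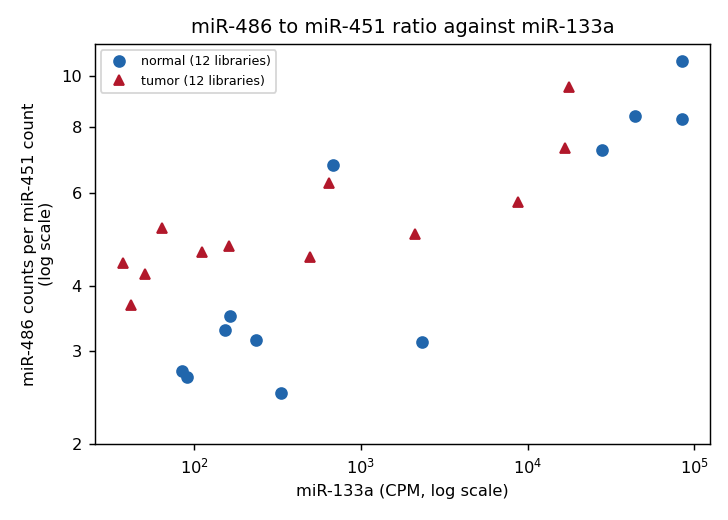
Counts of miR-486 per count of miR-451 (y axis, log scale) against miR-133a (CPM, log scale) in 12 normal (circles) and 12 tumor (triangles) libraries. The 4 normal libraries with 28036 CPM of miR-133a or more and the tumors richest in it have the highest ratios of their genotype.

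The other miRNAs linked to red cells and to hemolysis of plasma mostly moved the other way. Of the 7 listed, all also made by many other cells, 1 was called under-expressed and 6 over-expressed in tumors when averaged over the weeks, where 46.8% and 38.8% of the miRNAs tested were called in these directions. The median log2 fold change of the 7 was 0.50, beside -0.15 over all miRNAs tested. miR-16, which is abundant in red cells, was under-expressed (log2 -0.53, standard error 0.09, adjusted p = 3.28e-05). miR-92a, miR-17 and miR-20a of the oncogenic miR-17 cluster, known for driving proliferation, were over-expressed at log2 1.23, 1.27 and 1.33, and miR-25, miR-93 and miR-106b of its paralogous cluster at 0.40, 0.50 and 0.45. By week, 3, 2, 5 and 5 of the 7 were over-expressed, beside 29.1%, 21.9%, 32.9% and 29.1% of the miRNAs tested, and 1, miR-16 at week 10, was under-expressed. With replicate numbers as a block, miR-16 (-0.65, adjusted p = 0.0401) and miR-20a (1.16, adjusted p = 0.00504) also passed the threshold at week 8. The list summed to 24731 to 45225 CPM in normal glands and 63918 to 88102 CPM in tumors. Most of this sum was miR-92a. Its median was 28293 CPM in normal glands and 65459 CPM in tumors, beside 37857 and 74749 CPM for the whole list. The sum therefore mainly follows miR-92a and not the list as a whole.

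miRNAs of other cells in the tissue were compared to place the erythroid miRNAs. miR-126, which marks the endothelium of vessels, was under-expressed in tumors at each week (log2 -0.67, -1.46, -1.39 and -1.57) and at -1.25 on average. All 5 of the stroma and smooth muscle miRNAs listed, miR-143, miR-145, miR-199a, miR-199b and miR-214, were under-expressed at each week, with a median of -1.22 on average. Of the 5 leukocyte miRNAs listed, miR-223, the miRNA of neutrophils, had 0 counts in all 24 libraries and 4 were tested. Only 364 of the 510 miRNAs had a count in any library. Whether miR-223 was absent or was missed by the counting cannot be told, so its 0 says nothing about neutrophils. miR-150 of mature lymphocytes was under-expressed at each week and at -2.05 on average, miR-342 was over-expressed at 0.71 on average and at week 12 alone among the weekly tests (with the replicate block also at week 8, 0.81, adjusted p = 0.0261), and miR-155 was not called (0.17, adjusted p = 0.420). miR-142, which blood cells of most lineages make, was not called at any week and averaged -0.13 (standard error 0.10, adjusted p = 0.233).

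How the erythroid miRNAs stood to these differed from one reference miRNA to the next, and the leukocyte miRNAs did not move together. The log2 ratio to miR-142 differed between tumor and normal by -1.28 for miR-451 (exact permutation, adjusted over 9 ratios p = 1.13e-04), by -1.07 for miR-486 (exact permutation, adjusted p = 0.00848) and by -0.84 for miR-144 (exact permutation, adjusted p = 0.00585). The log2 ratio to the vessel miRNA miR-126 differed by -0.13 for miR-451 (exact permutation, adjusted p = 0.776), by 0.08 for miR-486 (exact permutation, adjusted p = 0.886) and by 0.30 for miR-144 (exact permutation, adjusted p = 0.488). The ratio to miR-143 differed by -0.16 (exact permutation, adjusted p = 0.757), 0.05 (exact permutation, adjusted p = 0.886) and 0.27 (exact permutation, adjusted p = 0.525) for the same 3. The SD of the ratios to miR-126 and miR-143 over the 12 libraries of a genotype lay between 0.46 and 1.00, so a p above the threshold does not show that they were equal. Relative to miR-150, which itself was under-expressed, the erythroid miRNAs were higher in tumors on average over the weeks. The log2 ratios differed by 1.08 for miR-144 (exact permutation, adjusted over 9 ratios p = 0.00284), 0.65 for miR-451 (exact permutation, adjusted p = 0.0461) and 0.86 for miR-486 (exact permutation, adjusted p = 0.0415). By week, they differed by 0.35, 0.50, 2.05 and 1.44 for miR-144, by -0.04, 0.10, 1.43 and 1.11 for miR-451, and by 0.09, 0.60, 1.76 and 0.99 for miR-486. The 9 ratios to miR-150, miR-155 and miR-342 were adjusted apart from the 9 to miR-142, miR-126 and miR-143, not together with them. Among the ratios to miR-150, the call of miR-451 held in 9 of 24 fits that left out a library and that of miR-486 in 12 of 24. Relative to miR-155 they were lower, by -1.19 for miR-144 (exact permutation, adjusted p = 0.00477), -1.62 for miR-451 (exact permutation, adjusted p = 2.25e-04) and -1.41 for miR-486 (exact permutation, adjusted p = 0.00477). Relative to miR-342, which was over-expressed, they were lower by -1.72 (exact permutation, adjusted p = 2.25e-04), -2.15 (exact permutation, adjusted p = 1.13e-04) and -1.94 (exact permutation, adjusted p = 5.34e-04) for the same 3. Since miR-142 and miR-155 were not called, the ratios to them mostly restate the change of the erythroid miRNAs themselves. miR-155 was also sparsely counted. Its median was 11.3 CPM in normal glands and 13.8 CPM in tumors, beside 1469 and 1435 CPM for miR-142.

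The skeletal muscle and epithelial miRNAs complete the lists. The 3 skeletal muscle miRNAs tested were under-expressed in tumors on average (median log2 -3.16) and at week 12 (median -6.19), and 1 of them, miR-133a, at week 8. These values rested on few libraries, and the median level of miR-133a was 505 CPM in normal glands and 329 CPM in tumors. That of miR-1 was 13.6 and 6.36 CPM, with 0 counts in 1 library. That of miR-133b was 6.77 and 2.67 CPM, with 0 counts in 2 libraries. The values of miR-1 and miR-133b, with or without the block, therefore also rested on few counts in many libraries. On average, none of the 3 was called without normal replicate 3 of week 10 (-1.64 for miR-1, -1.18 for miR-133a and -1.53 for miR-133b, adjusted p = 0.132, 0.229 and 0.203) or without normal replicate 1 of week 12 (-2.18, -1.84 and -2.26, adjusted p = 0.0580, 0.0920 and 0.0768). Without that normal library of week 12 the values of the week were -2.72 for miR-1 (adjusted p = 0.0225), -1.76 for miR-133a (adjusted p = 0.0584) and -2.57 for miR-133b (adjusted p = 0.0292), and without any of its 3 tumors none was called (-5.72 to -7.87, adjusted p from 0.0589 to 0.0984). At week 6, where none was called, all 3 were without normal replicate 3 (-3.29, -2.58 and -2.60, adjusted p from 0.00114 to 0.0133). With replicate numbers as a block, miR-133b passed the threshold at week 8 (-2.81, adjusted p = 0.0390), as did miR-1 (-1.13, adjusted p = 0.0197), miR-133a (-1.01, adjusted p = 2.04e-04) and miR-133b (-1.87, adjusted p = 7.61e-04) at week 10. The direction at week 10 rested on single libraries. In fits without the block, all 3 changed sign without normal replicate 3 of that week (4.46 to 5.45). Without tumor replicate 3 they were -7.94 to -6.70. None was called in either fit. Of the 7 epithelial miRNAs, the 5 of the miR-200 family, miR-200a, miR-200b, miR-200c, miR-141 and miR-429, which hold cells in the epithelial state, were over-expressed at each week and on average, with averaged log2 values of 1.66 to 2.54. On average, miR-205 was not called (0.29, adjusted p = 0.333) and miR-203 was under-expressed (-0.70, adjusted p = 0.00756). By week, miR-203 was called at week 12 alone (-1.87, adjusted p = 0.0390), with -0.40, -0.31 and -0.26 at weeks 6, 8 and 10. The level of every miRNA is a share of the same library total, and a rise of abundant epithelial miRNAs and a fall of others cannot be told apart from such shares alone.

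The miRNAs with patterns most like the erythroid ones were sought among the 237 tested. After the mean of each group was subtracted, miR-451 (r = 0.89), miR-486 (r = 0.81) and miR-338 (r = 0.70) were closest to miR-144 over the 24 libraries. Closest to miR-451 were miR-144 (r = 0.89), miR-486 (r = 0.72) and miR-667 (r = 0.62), and closest to miR-486 were miR-144 (r = 0.81), miR-149 (r = 0.79) and the muscle miRNA miR-133b (r = 0.73). On levels as they are, which also hold the genotype difference, the closest to miR-144 were miR-451 (r = 0.93), miR-486 (r = 0.87) and miR-338 (r = 0.83). Those to miR-451 were miR-144 (r = 0.93), miR-10b (r = 0.83) and miR-139 (r = 0.83), and those to miR-486 were miR-144 (r = 0.87), miR-451 (r = 0.82) and miR-338 (r = 0.82). These correlations are descriptions, since values of a library share its depth and its scaling.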

How the data were processed

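Small RNA libraries (Illumina TruSeq Small RNA kit, total RNA of frozen tissue) were made from 24 mice. The authors removed barcode and adaptor, aligned reads of 17 to 27 bases with Bowtie and deposited raw counts per miRNA, of reads overlapping a miRBase miRNA by more than 50%. The methods name mm10, the submitters' processing notes and labels mm9. Strand use and Bowtie version are not given in the sources used here. Groups, replicate numbers and lanes came from the labels. Replicates are described as separate mice.

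Counts were tested with edgeR 4.0.16 in R 4.3.3 (filterByExpr over 8 groups, TMM, quasi-likelihood test, Benjamini-Hochberg over 237 miRNAs, threshold 0.05), within each week and in a fit of all libraries. The standard error is the log2 fold change divided by the square root of F. Log2 CPM used a prior count of 2 and ratios 0.5 added counts. Exact permutation tests exchanged genotypes within weeks, and correlations used 100000 resamples (Python 3.11.15, numpy 2.4.6, scipy 1.17.1, matplotlib 3.10.9). The procedures were tested on simulated data that held no pairing of libraries, lane effect or outlying library, so that check does not cover these features of the real libraries. No replicates agreed within sampling noise. Intervals of counting error do not cover amplification.

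Same-numbered tumor and normal libraries deviated together, with a correlation above 0.1 in all 3 pairs at weeks 6, 8 and 10 but not at week 12, so the blocked fit is given beside the results of the first 3 weeks, list members included, where it changed a call. No source says that a number marks a shared batch. By the labels, however, each tumor ran on the same lane as the gland with its number and week. The block therefore also takes in the lane. Whether the lane accounts for the correlation within pairs was not tested.

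Each library was left out in turn, and the replicate number or the lane was added to the fit. Scaling was repeated by library size alone, by the size factors of DESeq2 1.42.0 and without the 5 most counted miRNAs. Its Wald test and the classic exact test of edgeR replaced the main test, a joint fit of 24 libraries the weekly fits, and 10 counts per library or no minimum the filter. miR-133a as a covariate, its relation to miR-486, and the ratios to miR-126, miR-142, miR-143, miR-150, miR-155 and miR-342, the muscle miRNAs without each library and the block for list members were chosen after seeing the data. The members and lists were chosen with earlier results of these data known. The lists were red cell and hemolysis linked, leukocyte, endothelial, skeletal muscle, stroma and smooth muscle, and epithelial miRNAs. Named miRNAs were the 3 members, the 3 most correlated with each, and list members. mRNA sequencing of the study was not analysed here.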

Additional observations from a re-analysis of the deposited data

How the results depend on the processing

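The averaged under-expression of miR-144, miR-451 and miR-486 kept its direction and its call under the 7 alternatives tried and without any of the 24 libraries. Without a library the log2 fold change was -1.20 to -0.82 for miR-144, -1.64 to -1.23 for miR-451 and -1.54 to -1.07 for miR-486. Weekly values never changed sign, and 108 of 120 from other settings stayed on their side of the threshold. The other 12 were as follows, and the cause of these changes was not tested. At week 8, values were past the threshold with the Wald test of DESeq2 for miR-144 (-1.61) and miR-486 (-1.51), with the classic exact test for miR-451 (-1.72), with the lane as a covariate for miR-451 (-2.28) and in a fit of all libraries for miR-144 (-1.46) and miR-451 (-1.71). In that fit the calls of miR-451 at week 6 (-0.84) and of miR-144 at week 12 (-1.13) were lost.

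With the replicate block, miR-144 (-1.81), miR-451 (-2.26) and miR-486 (-1.76) passed the threshold at week 8 and miR-486 (-0.85) at week 10, and 131 in place of 84 miRNAs were called at week 8. The block changed no other call of the 3 miRNAs. At week 12, where the correlation of same-numbered libraries was 0.0312, 0.42 and 0.0718 and 2 of 6 libraries correlated best with their own number, the block called 117 miRNAs in place of 120. Over all weeks it called 201 in place of 203, with averaged values of -0.97, -1.41 and -1.21.

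When a library was left out, the ranges over the fits were -0.74 to -0.20 (miR-144), -0.98 to -0.67 (miR-451) and -1.42 to -0.40 (miR-486) at week 6, -2.44 to -1.06, -2.96 to -1.31 and -2.36 to -0.97 at week 8, -1.40 to -0.34 for miR-486 at week 10, and at week 12 -1.40 to -0.98 for miR-144 and -2.03 to -1.22 for miR-486. The number of miRNAs called fell to 78 at week 6 (tumor replicate 2 left out, 139 with all), 50 at week 8 (tumor replicate 1) and 74 at week 12 (tumor replicate 3, 120 with all). The adjusted p of miR-451 over the weeks in tumors ran from 0.0356 to 0.994. Ratios that were not past the threshold changed sign when a library was left out, with ranges of -0.30 to 0.0090 for miR-451 to miR-126, -0.13 to 0.26 for miR-486 to miR-126 and -0.14 to 0.20 for miR-486 to miR-143. The ratios to miR-150 ran from 0.46 to 0.81 for miR-451, called in 9 of 24 fits, and from 0.68 to 1.06 for miR-486, called in 12 of 24, and with same-numbered pairs that of miR-451 (0.65) was past the threshold no more. In normal glands r ran from 0.56 to 0.87 for miR-144 with miR-451 and from 0.55 to 0.73 for miR-144 with miR-486. For miR-451 with miR-486 it was 0.63 on deviations from group means, with an adjusted permutation p of 0.0316. In tumors, r of the ratio of miR-144 to miR-451 with miR-133a ran from -0.0081 to 0.31. With library sizes only, the median log2 fold change of all miRNAs tested moved from -0.12 to -0.26 at week 6, from -0.09 to -0.22 at week 8 and from -0.19 to -0.0059 at week 12, and the calls of the 3 miRNAs stayed the same. The lowest count of the 3 miRNAs was 40, and the weekly results rest on 3 libraries a group. Under both other scalings, no averaged value of a tested list member changed its sign or its call.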
